A study of Mus musculus with 6 samples.

Results

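The genes that move and fuse vesicles were followed in the embryonic mouse pancreas with and without AMI-5, a small molecule that inhibits protein methyltransferases, including enzymes that methylate arginine. They were taken by name from the deposited count table as the protein-coding genes whose symbols are those of the numbered Rab GTPases, vesicle-associated membrane proteins (Vamp), syntaxins (Stx), the SNAP-25 family, the synaptotagmins (Syt) and the syntaxin-binding proteins (Stxbp). This gave 109 of the 49671 genes in the table, of which 59 were Rabs, 8 Vamp genes, 15 syntaxins, 4 of the SNAP-25 family, 17 synaptotagmins and 6 syntaxin-binding proteins. The rule reads gene names and no measured value, but it was written with earlier results of these data known.

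Whole embryonic pancreata of strain C57BL/6J at 14.5 dpc (days after conception) were used, 3 of them controls and 3 exposed to 10 µM AMI-5, with 1 library of total RNA from each sample. No genotype other than the strain is given, and neither the length of treatment nor the culture conditions are in the labels used here. The labels do not say whether replicates came from separate animals or pools, so the p-values cover no more than the variation among these libraries, part or all of which may be technical. The labels give an earlier version of the strand-specific library kit for the samples marked A, which is the mark of the 3 controls, so kit version and treatment cannot be told apart in any value below.

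Rab GTPases are molecular switches that recruit motors, tethers and docking factors to a vesicle and so mark where it goes. SNARE proteins on vesicle and target membranes (Vamp genes on 1 side, syntaxins and SNAP-25 relatives on the other) zip together to fuse the membranes, Stxbp proteins of the Munc18 family and others bind the syntaxins, and many synaptotagmins sense the calcium that triggers release. In the pancreas the acinar cells store digestive enzymes in zymogen granules and the endocrine cells store hormones in dense-core granules, and both also run the constitutive traffic between endoplasmic reticulum, Golgi, plasma membrane, endosomes and lysosomes that every cell needs.

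The sequences upstream of 3 members that the results turn on are shown first. Bhlha15 (MIST1), an acinar transcription factor that binds E-boxes, is known in mouse to activate Rab3d and Rab26. Rab26 and Rab27b had no entry among the promoters used and are not shown, and no link of Bhlha15 to Vamp8 or Stx7 is meant. Each sequence is the 250 bases before the annotated start in RefSeq (GRCm38.p6), 5′ to 3′ on the gene's own strand, with any E-box in capitals. They are Rab3d, which rose, at chr9:21918184-21918433 (minus strand), Vamp8, which fell, at chr6:72390668-72390917 (minus strand), and Stx7, which rose, at chr10:24149039-24149288 (plus strand).
Rab3d: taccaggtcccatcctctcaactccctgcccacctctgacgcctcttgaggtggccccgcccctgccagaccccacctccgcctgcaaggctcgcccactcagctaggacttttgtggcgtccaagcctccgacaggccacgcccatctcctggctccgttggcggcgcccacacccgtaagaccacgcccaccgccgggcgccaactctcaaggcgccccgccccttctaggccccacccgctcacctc
Vamp8: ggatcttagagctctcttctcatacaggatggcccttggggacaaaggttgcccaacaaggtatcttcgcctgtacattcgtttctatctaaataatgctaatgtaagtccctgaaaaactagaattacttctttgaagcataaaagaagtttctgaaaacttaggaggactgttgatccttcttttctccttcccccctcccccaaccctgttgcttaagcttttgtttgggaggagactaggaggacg
Stx7: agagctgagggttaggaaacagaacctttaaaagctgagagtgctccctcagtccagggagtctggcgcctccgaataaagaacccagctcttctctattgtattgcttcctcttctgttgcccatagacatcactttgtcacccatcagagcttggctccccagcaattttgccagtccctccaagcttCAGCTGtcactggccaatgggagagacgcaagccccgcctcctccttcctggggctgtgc
The motif searched was CANNTG, which reads the same on both strands and includes CATATG and CACGTG. No match was found in these letters of Rab3d and Vamp8, and 1 in those of Stx7. GC content was 69.2% for Rab3d, 43.6% for Vamp8 and 54.0% for Stx7. Over the 86 members in the promoter table, 58 (67.4%) held a CANNTG, against 66.2% of all 32851 promoters. For CATATG it was 1 member (1.16%) against 3.46%, and for CACGTG 9 members (10.5%) against 6.02%. A match is a description of the letters and not of binding.

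The control libraries held 12445425 to 13321899 counts and the AMI-5 libraries 22894312 to 24805188, so low genes were measured less precisely in the controls. The members held 0.486% to 0.501% of the counts in controls and 0.461% to 0.469% with AMI-5. Of 17519 genes with enough reads to test, 54.1% passed the threshold (Benjamini-Hochberg adjusted p under 0.05 in edgeR's quasi-likelihood test), 27.5% higher and 26.6% lower with AMI-5, and such a gene is said here to be called. Among protein-coding genes 50.8% were called, 20.1% higher and 30.6% lower. With library totals in place of TMM scaling the split of all calls was 3962 higher and 5883 lower, against 4820 and 4652. Markers of acinar cells were present in every library with summed levels of 50680 to 70980 CPM (read counts scaled to a common TMM-adjusted library size) in controls and 119400 to 147800 CPM with AMI-5, and Chga, Ins1 and other endocrine markers with 5450 to 6314 CPM and 5777 to 7386 CPM. In whole organs, fewer cells of a type and less RNA per cell cannot be told apart.

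With AMI-5, the vesicle genes moved in both directions by small amounts. Of the 105 members tested, 26 were higher, 29 lower and 50 not called. The share called was close to the 54.1% of all tested genes (27.5% higher and 26.6% lower). In 65 members the 3 control and 3 AMI-5 libraries did not overlap, and over all tested genes this held for 61.9%. The median log2 fold change (AMI-5 over control) of the members was 0.06, against 0.00 over all tested genes and -0.06 over protein-coding genes. Only 6 members differed by a log2 fold change of 1 or more, and 86 by under 0.5. By family, 15 Rabs were higher and 14 lower of 57 tested, 3 Vamp genes higher and 3 lower of 7, 3 syntaxins higher and 7 lower of 15, 1 of 4 SNAP-25 relatives higher with the other 3 not called, 2 synaptotagmins higher and 4 lower of 16, and 2 syntaxin-binding genes higher and 1 lower of 6.

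The exocrine, endocrine and constitutive groups, set from textbook roles, had medians close to each other and to that of all genes. The median log2 fold change was -0.02 over 8 exocrine genes, 0.00 over 17 endocrine and neuronal genes and 0.10 over 46 constitutive genes. Called higher and lower were 3 and 3 of the exocrine genes, 3 and 5 of the endocrine and neuronal genes, and 16 and 12 of the constitutive genes. Summed over the group, the exocrine genes stood at 557.5, 569.5 and 505.4 CPM in the control libraries and 573.6, 517.0 and 569.6 CPM in the treated ones, and the 2 sets of libraries overlapped. The endocrine and neuronal genes summed to 504.5, 491.5 and 490.5 CPM in the control libraries and 455.9, 427.3 and 468.5 CPM in the treated ones. This sum was lower in every treated library, but it weighs abundant genes most, and the median of the group was 0.00. Mean levels of Syt13, Syt7 and Stx1a went from 171.7, 68.1 and 28.8 CPM to 147.3, 51.0 and 19.3 CPM. The constitutive genes summed to 3022.5, 2949.2 and 2974.8 CPM and to 3096.4, 3048.5 and 3060.8 CPM, higher in every treated library, but with library totals in place of TMM the order turned, with 3038.4, 3037.8 and 3153.9 CPM in controls and 2990.4, 2989.0 and 2921.3 CPM with AMI-5. Each group held genes called in both directions, as did all tested genes (27.5% higher and 26.6% lower) and protein-coding genes (20.1% and 30.6%).

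**Figure D1:**
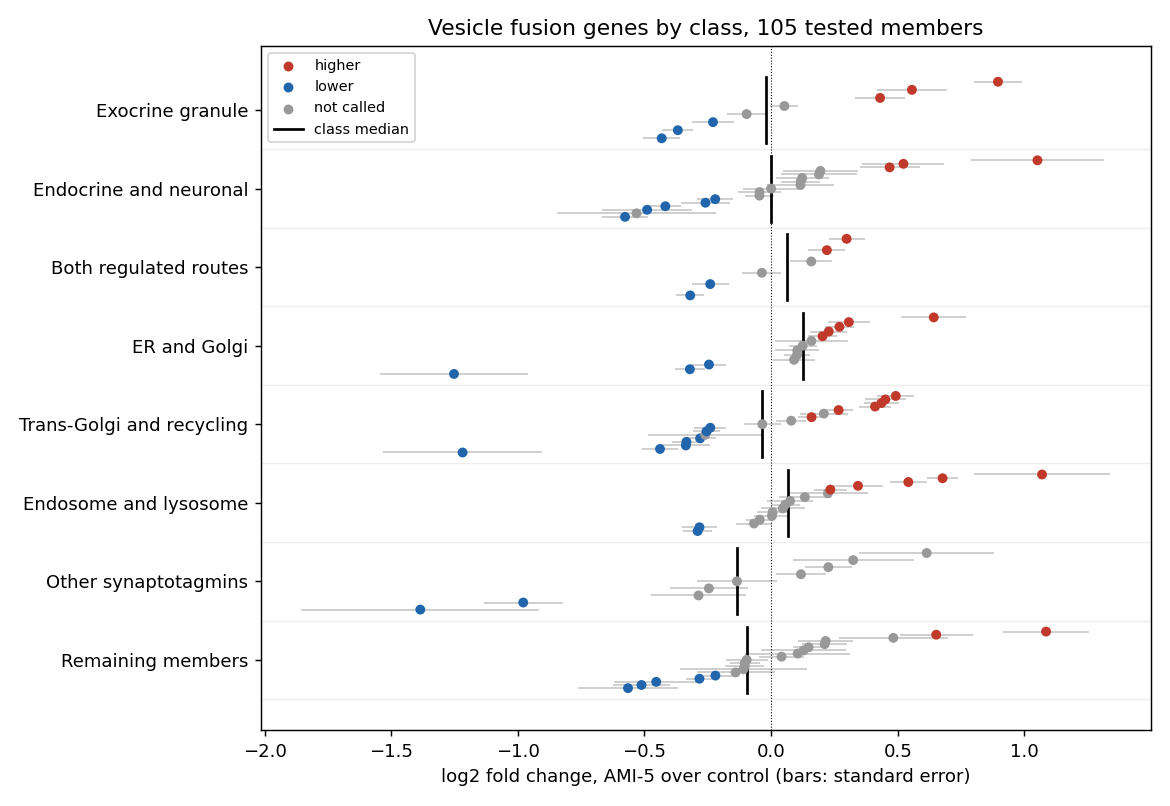
Log2 fold change (AMI-5 over control) of each of the 105 tested members on the horizontal axis, in rows by class, with the standard error as a bar, red for called higher, blue for called lower and grey for not called. The black line is the class median, and each class holds points on both sides of 0.

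Among the exocrine genes, the 3 Rabs of the zymogen granule rose while a granule SNARE and a Munc18 partner fell. Rab3d, which coats mature zymogen granules and shapes their size and number, was at 152.6, 153.4 and 121.7 CPM in the control libraries and 201.1, 172.7 and 202.7 CPM in the treated ones. All 3 treated libraries were above all 3 controls, and the difference was 0.43 on the log2 scale (SE 0.10, adjusted p = 0.0043). Rab26, a Rab of secretory granules in acinar cells, was at 18.5, 22.0 and 14.4 CPM and then at 29.6, 24.4 and 26.9 CPM. Again the groups did not overlap, with a rise of 0.56 on the log2 scale (SE 0.14, adjusted p = 0.007), and 9.4% of its exonic bases lie under Traf7 on the same strand, so that part of its reads is uncertain. Rab27b, which acts in the release of zymogen granules, rose most, from 16.4, 16.8 and 13.6 CPM to 29.4, 27.9 and 29.9 CPM. Its log2 fold change was 0.90 (SE 0.09, adjusted p = 8.07e-06).

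Vamp8, the main vesicle SNARE of zymogen granules (chr6:72385223-72390703, mm10), was at 102.1, 95.2 and 91.1 CPM in the control libraries and 76.6, 64.9 and 72.3 CPM in the treated ones. Every treated library was below every control, a fall of 0.43 on the log2 scale (SE 0.07, adjusted p = 0.000323). Stxbp2 (Munc18b), which binds the syntaxins of apical and granule membranes, was at 142.5, 154.6 and 139.3 CPM and then at 113.8, 107.4 and 116.9 CPM. The groups were again apart, with a log2 ratio of -0.37 (SE 0.06, adjusted p = 0.000314). Rab3d, Rab26 and Rab27b were called higher, and Vamp8 and Stxbp2 lower, in every processing alternative that they entered.

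Stx3, a syntaxin of granule and apical membranes, was at 32.4, 32.9 and 29.03 CPM in the control libraries and 27.9, 24.9 and 27.7 CPM in the treated ones. The difference on the log2 scale was -0.23 (SE 0.08, adjusted p = 0.033). The call was lost without control 1 (-0.21), control 2 (-0.20), AMI-5 2 (-0.15) or AMI-5 3 (-0.24), and in 12 of 16 planned processing alternatives in all. Stx2, an apical plasma membrane syntaxin, was at 36.1 ± 3.0 CPM and 33.7 ± 0.90 CPM (mean ± SD, n = 3 each) and was not called (-0.10, adjusted p = 0.31). Snap23, the SNAP-25 relative that pairs with these SNAREs, was at 58.5 ± 1.9 CPM and 60.7 ± 0.58 CPM and was not called (0.05, adjusted p = 0.45), but was called lower once trends with GC content and length were removed (-0.19, adjusted p = 0.0087). Per kilobase of the deposited gene length, the control levels were 41.6 CPM per kb for Vamp8, 35.0 for Stxbp2, 34.0 for Rab3d, 13.6 for Snap23, 7.87 for Stx2, 6.42 for Rab26, 5.50 for Stx3 and 1.46 for Rab27b.

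Beside these, 5 of the 10 acinar markers were higher, 1 lower and 4 not called, with a median log2 fold change of 0.54. Well above that median were Cel, an enzyme that digests lipid esters, at 2.18 and Gp2, a zymogen granule membrane protein, at 4.55. Bhlha15 was at 124 CPM in the control libraries and 135 CPM in the treated ones and was not called (0.12, adjusted p = 0.26). Markers of leukocytes, which also use Vamp8 and Stxbp2, were higher in 4 of 7, the others not being called, with summed levels of 173.8 to 205.4 CPM and 229.9 to 275.4 CPM. Of 7 mast cell markers, 5 could be tested, and 4 were higher and 1 was not called. Without Kit they summed to 1.53 to 2.73 CPM in the control libraries and 10.4 to 20.5 CPM in the treated ones, and Fcer1a was at 0 in all libraries. The part of these cells in the exocrine values was not tested.

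**Figure D2:**
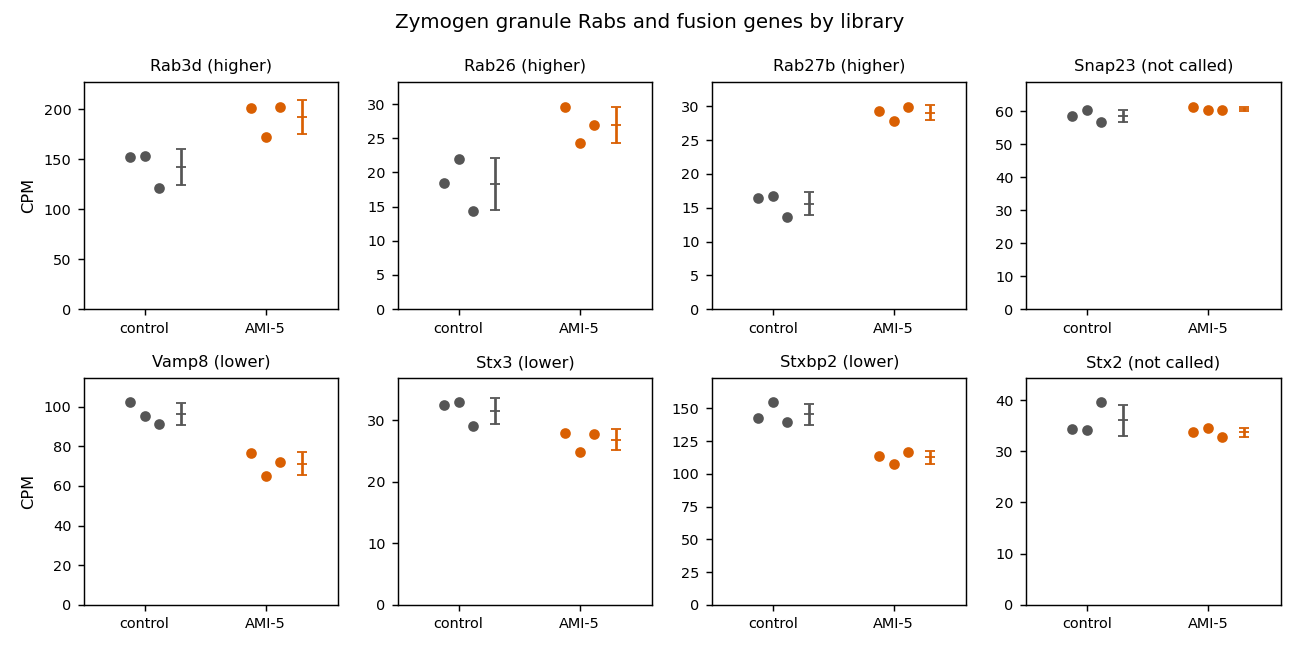
CPM of the 8 exocrine granule genes (vertical axis, starting at 0) in each of the 3 control and 3 AMI-5 libraries, with mean ± SD at the right of each set of points. The AMI-5 points of Rab3d, Rab26 and Rab27b lie above the controls, those of Vamp8, Stx3 and Stxbp2 below, and those of Snap23 and Stx2 overlap them.

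In the endocrine and neuronal group Stx1a, Syt7, Syt13 and Vamp1 were among 5 genes that were lower, while Syt4, Syt5 and Rab3c were higher. Stx1a, the syntaxin with which Snap25 fuses insulin granules and synaptic vesicles, was at 27.9, 26.0 and 32.4 CPM in the control libraries and 19.0, 19.2 and 19.6 CPM in the treated ones. The groups did not overlap, and the fold change was -0.58 on the log2 scale (SE 0.09, adjusted p = 0.000228). Syt7, a high-affinity calcium sensor of granule release, was at 69.1, 68.9 and 66.2 CPM and then at 49.7, 48.4 and 54.7 CPM. It too fell in all treated libraries, by 0.42 on the log2 scale (SE 0.06, adjusted p = 0.000152). Both calls held in every processing alternative that the genes entered.

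The falls of Syt13 and Vamp1 were less stable. Syt13, an atypical synaptotagmin of the endocrine lineage and the most abundant synaptotagmin here per length, was at 179.6, 170.9 and 164.5 CPM in the control libraries and 146.3, 134.6 and 161.0 CPM in the treated ones. Its log2 fold change was -0.22 (SE 0.07, adjusted p = 0.019), with the call lost without control 1 (-0.19), AMI-5 1 (-0.20) or AMI-5 2 (-0.14). Vamp1, a vesicle SNARE close to Vamp2, was at 15.7 ± 1.4 CPM and 13.1 ± 0.27 CPM, with a log2 fold change of -0.26 (adjusted p = 0.041). Its call was lost without control 3 (-0.19), AMI-5 1 (-0.23), AMI-5 2 (-0.24) or AMI-5 3 (-0.26). In all, 12 of 16 planned processing alternatives lost it.

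Syt4, a synaptotagmin that does not sense calcium and acts in granule maturation, was at 2.71, 1.46 and 2.35 CPM in the control libraries and 5.43, 3.25 and 4.82 CPM in the treated ones. The lowest treated library was above the highest control, and the log2 fold change was 1.05 (SE 0.26, adjusted p = 0.0051). The annotated antisense gene Gm26658 covers 14.7% of the exonic bases of Syt4, and the sources used here do not say whether the counting used strand. Syt5, a synaptotagmin of dense-core vesicles, was at 7.05, 7.14 and 7.50 CPM and then at 10.9, 9.67 and 9.50 CPM, all above the controls (0.47, SE 0.12, adjusted p = 0.0055). Rab3c was at 3.82 ± 0.29 CPM and 5.48 ± 0.56 CPM (0.52, adjusted p = 0.017), and its call was lost without control 3 (0.46) or AMI-5 3 (0.45).

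The other 9 were not called. Among them were the other Rabs of hormone granules, with log2 fold changes of -0.05 for Rab3a, 0.12 for Rab3b, 0.12 for Rab27a and 0.00 for Rab37. Snap25, which pairs with Stx1a, stood at 0.12. The calcium sensors Syt1, Syt2 and Syt9 stood at 0.19, -0.53 and 0.19, with standard errors of 0.15, 0.32 and 0.15. So the zymogen granule paralog Rab3d was called higher, while Rab3a, at 22.4 ± 1.7 CPM and 21.7 ± 0.47 CPM, was not called, and the ratio of the 2 is given below.

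Beside these values, 4 of 13 endocrine markers were lower (Neurog3, Insm1, Chga and Chgb) and 1 higher (Ins1). Of 12 neuronal markers, 11 could be tested, and 5 were lower (Tubb3, Prph, Ret, Nefl and Nefm) and 1 higher (Elavl4), with summed levels of 249.1 to 276.3 CPM in the control libraries and 161.9 to 196.5 CPM in the treated ones. Of 7 glial markers 3 were lower and 1 higher (152.5 to 161.8 CPM and 119.7 to 146.1 CPM). No marker of these lists was at 0 in all libraries. Neurons of the pancreas and endocrine cells share most of this group, and the part of each was not tested.

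**Figure D3:**
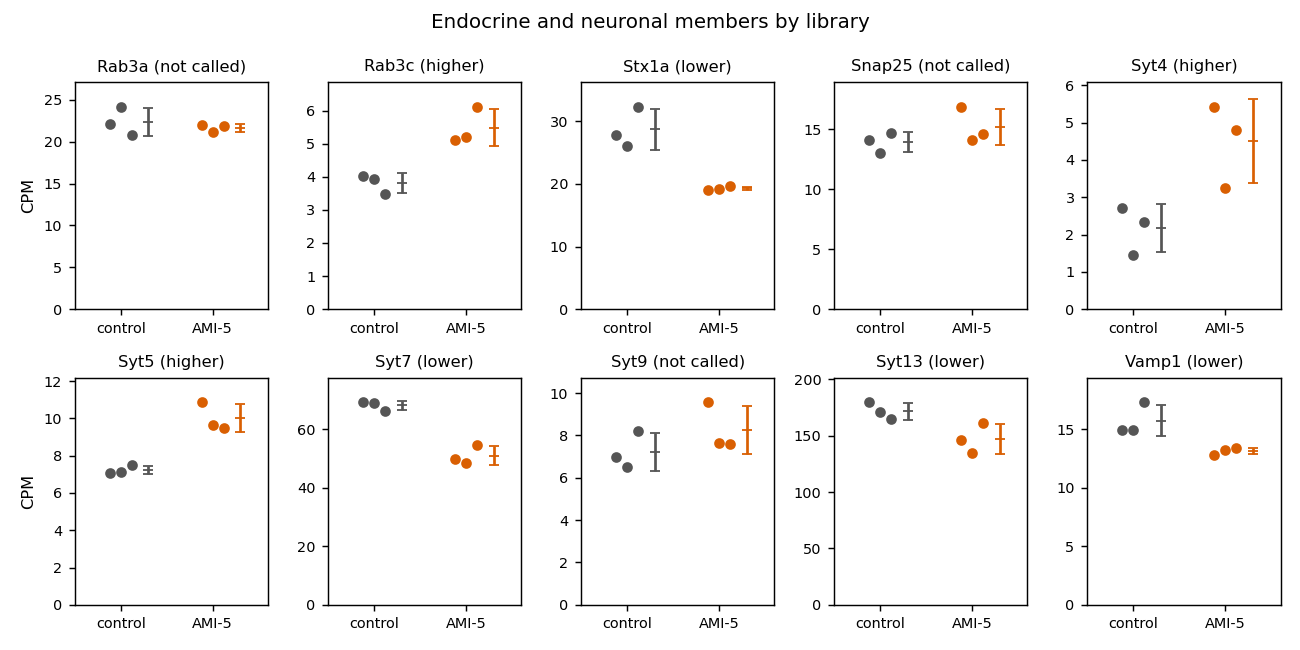
CPM of 10 endocrine and neuronal members (vertical axis, starting at 0) in each of the 3 control and 3 AMI-5 libraries, with mean ± SD at the right of each set of points. Stx1a and Syt7 are lower and Syt5 and Syt4 higher in every treated library, and Rab3a, Snap25 and Syt9 overlap between the groups.

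Of 6 genes that serve both regulated routes, 2 were lower and 2 higher. Stx4a, a plasma membrane syntaxin used by insulin granules and by transporter vesicles, was at 70.4, 73.0 and 69.7 CPM in the control libraries and 58.2, 56.6 and 56.1 CPM in the treated ones. The groups did not overlap (-0.32, SE 0.05, adjusted p = 0.0004), and 5.2% of its exonic bases lie opposite another gene. Vamp2, the vesicle SNARE of insulin and synaptic vesicles, was at 74.2 ± 7.8 CPM and 62.9 ± 0.54 CPM (-0.24, adjusted p = 0.016), and the call was lost without control 2 (-0.18). Stxbp6 (amisyn), a SNARE-binding protein without a membrane anchor, was at 26.1 ± 0.91 CPM and 32.1 ± 0.67 CPM (0.30, adjusted p = 0.0037). Stxbp4 (Synip), which binds Stx4, was at 23.6 ± 0.63 CPM and 27.5 ± 0.33 CPM (0.22, adjusted p = 0.023), with the call lost without control 1 (0.20) or control 2 (0.21). Stxbp3 (Munc18c) stood at 0.16 and Stxbp5 (tomosyn) at -0.04, neither called, although Stxbp3 was called higher without control 1 (0.23), and Stxbp5 lower with GC and length trends removed (-0.19, adjusted p = 0.031).

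In the constitutive routes Stx7, Vamp7 and Vamp3, SNAREs of endosomes and of the recycling pathway, rose, and the Golgi syntaxins Stx5a, Stx6 and Stx16 fell. These genes do not stand for their compartments, each of which held calls in both directions. Stx7, a late endosomal syntaxin (chr10:24149317-24188959, mm10), was at 41.5, 44.6 and 45.8 CPM in the control libraries and 70.3, 72.5 and 68.1 CPM in the treated ones. The groups were far apart compared with their spread, with a rise of 0.68 on the log2 scale (SE 0.06, adjusted p = 2.11e-06). Vamp7, a vesicle SNARE of late endosomes and lysosomes annotated on an unplaced X scaffold, was at 29.9, 31.3 and 30.2 CPM and then at 46.2, 40.7 and 46.1 CPM (0.54, SE 0.07, adjusted p = 6.4e-05). Vamp3 (cellubrevin), the vesicle SNARE of recycling endosomes, was at 78.3, 71.7 and 67.7 CPM and then at 104.4, 96.0 and 94.2 CPM (0.44, SE 0.07, adjusted p = 0.000214). All treated libraries were above all controls for the 3 genes. Vamp4 of the trans-Golgi network, Stx12 of recycling endosomes and Snap29, a SNAP-25 relative of autophagosome fusion, were also higher (0.45, 0.27 and 0.23), while Stx8, a partner of Stx7, was not called (0.08).

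The 3 lower syntaxins act at the Golgi and trans-Golgi network. Stx5a, the syntaxin of transport into the Golgi, was at 102.8, 116.9 and 100.1 CPM in the control libraries and 88.9, 87.8 and 93.1 CPM in the treated ones (-0.25, SE 0.07, adjusted p = 0.0089). Stx16, which acts in transport from endosomes to the trans-Golgi network, was at 108.4, 114.6 and 110.5 CPM and then at 91.0, 95.3 and 93.4 CPM (-0.25, SE 0.05, adjusted p = 0.0019). Neither gene's groups overlapped, and Stx6, which pairs with Stx16, stood at -0.28 (adjusted p = 0.0023). Stx18, a syntaxin of the endoplasmic reticulum, was higher (0.23) but lost the call without control 2 (0.22), control 3 (0.21) or AMI-5 1 (0.20), and 19.8% of its exonic bases lie opposite Gm42858. Stx17 was not called (0.09). Stx5a, Stx6, Stx12, Stx16 and Vamp4 were chosen for naming after their values were seen.

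By compartment, 5 of 13 members of the endoplasmic reticulum and Golgi were higher and 3 lower (median log2 fold change 0.12). In the trans-Golgi and recycling pathway 6 of 17 were higher and 7 lower (-0.03), and in endosomes and lysosomes 5 of 16 higher and 2 lower (0.07). Of all tested genes 27.5% were higher and 26.6% lower. The trans-Golgi and recycling median turned positive without control 1 (0.01) or AMI-5 2 (0.04), and that of the endoplasmic reticulum and Golgi was 0.006 with GC and length trends removed. Rab1b, the most abundant member per length in the controls (107.5 CPM per kb), drives transport from endoplasmic reticulum to Golgi. It was at 193.7, 194.3 and 204.1 CPM in the control libraries and 166.2, 149.3 and 158.6 CPM in the treated ones, below the controls in every library (-0.32, SE 0.06, adjusted p = 0.000601). Rab5c of early endosomes was also lower (155 ± 6.5 CPM and 127 ± 4.3 CPM, -0.29). Rab30, a Golgi Rab, Rab2a, which acts at the early Golgi, and Rab18, a Rab of the endoplasmic reticulum and lipid droplets, were higher (0.64, 0.20 and 0.27). Rab7 of late endosomes and Rab10, which acts in transport to the basolateral membrane, were abundant and not called (-0.04 and 0.08). Rab9b, the rarer paralog of Rab9, rose from 1.03 ± 0.12 CPM to 2.17 ± 0.52 CPM (1.07, adjusted p = 0.0052).

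Of the lower Rabs, 3 share their sequence with other annotated genes, so their values are uncertain. Rab43 stood at -1.25 with 74.5% of its exonic 50-base words in other genes, Rab4b at -1.22 with 58.1%, and Rab24, a Rab linked to autophagy, at -0.28 with 49.6%. Rab43 overlaps Gm45140 and Rab4b overlaps Gm21983 on the same strand over 75.4% and 65.0% of their exonic bases. Rab11b shares 13.6%, mostly with its pseudogene Rab11b-ps2 (8.87%). Rab33b, a Golgi Rab called higher at 0.31, has 18.7% of its exonic bases opposite Gm38160.

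Ratios of levels per length within 1 library were compared for the 21 pairs of tested Rabs that differ only by a letter, and in 14 the ratios of the 3 controls and 3 treated libraries did not overlap, a share close to the 61.9% of single genes whose groups did not overlap. The smallest p of an exact two-sided permutation test with 3 against 3 is 0.1, which these 14 pairs reached, and it adjusts to 0.15 over the 21 pairs. The ratio of Rab11a to Rab11b, Rabs of recycling endosomes, was 2.99, 3.15 and 2.93 in controls and 5.73, 5.35 and 5.26 with AMI-5. Rab11a rose (0.41, SE 0.06, adjusted p = 0.000164) while Rab11b fell (-0.44, SE 0.07, adjusted p = 0.000278). Their GC content was 39.5% and 48.1%, and with GC and length trends removed Rab11a was not called (0.12) and Rab11b stayed lower (-0.40). For Rab8a and Rab8b, which carry vesicles from the trans-Golgi network to the plasma membrane and the cilium, the ratio was 3.14, 2.85 and 3.00 and then 2.07, 1.63 and 1.75. Here Rab8a fell (-0.24) and Rab8b rose (0.49), and both calls held in every processing alternative that the genes entered. With GC and length trends removed Rab8a and Rab8b were nearer each other (-0.18 and 0.26). Rab33a (-0.57) and Rab33b were the third pair with a member called in each direction, but the call of Rab33a was lost without control 3 (-0.38), AMI-5 1 (-0.59), AMI-5 2 (-0.55) or AMI-5 3 (-0.50).

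Between the granule Rabs, the ratio of Rab27a, a Rab of hormone granules, to Rab27b was 9.17, 8.90 and 9.41 in controls and 5.56, 5.13 and 5.28 with AMI-5. The ratio of Rab3a to Rab3d was 0.273, 0.297 and 0.322 and then 0.206, 0.231 and 0.204. In both pairs the share of the zymogen granule paralog was larger in every treated library. This did not hold for the other Rab3 paralogs. The ratios of Rab3b to Rab3d and of Rab3c to Rab3d overlapped between the groups, with shifts of the mean log2 ratio of -0.32 and 0.09. The ratio of Rab1a to Rab1b was 0.648, 0.659 and 0.591 and then 0.806, 0.890 and 0.850, with Rab1a itself not called (0.10). GC content was 41.95% for Rab1a and 58.86% for Rab1b. With GC and length trends removed their log2 fold changes were close to each other (-0.09 and -0.06), so the shift of this ratio was not kept. Rab27a and Rab27b then stood at 0.10 and 0.585, and Rab3a and Rab3d at 0.14 and 0.60. The ratios are relations of length-scaled levels within a library, and their p-values cannot pass 0.05 in this design.

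**Figure D4:**
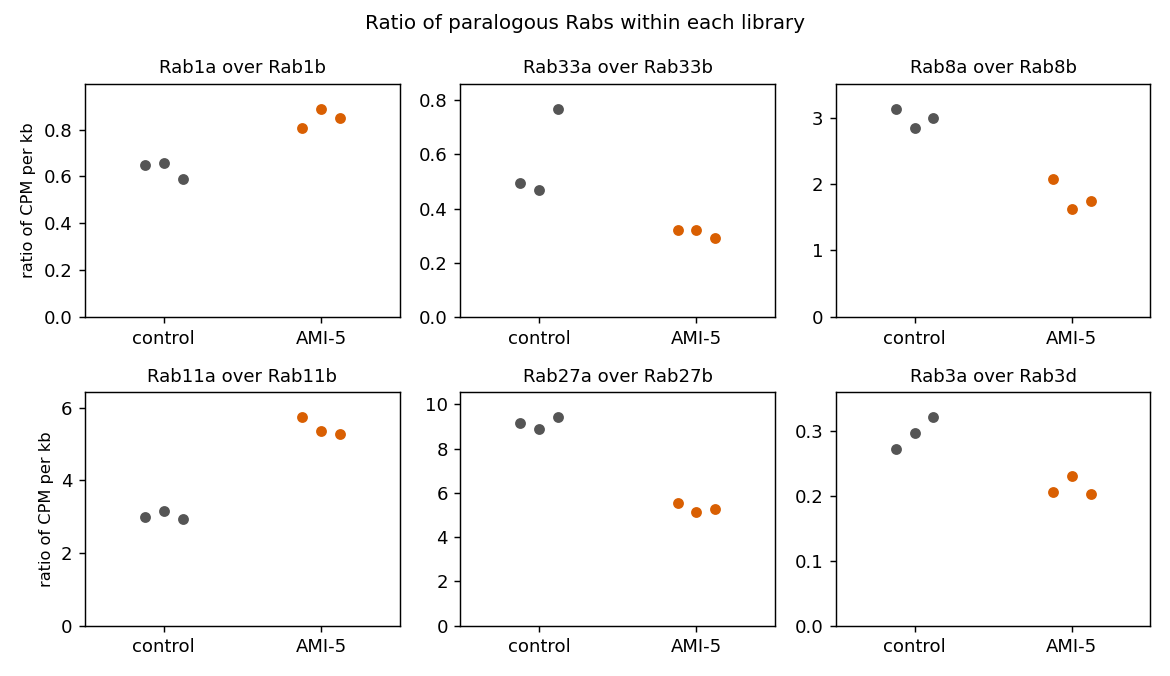
Ratio of CPM per kb of the first to the second named Rab within each library (vertical axis, starting at 0) for 6 pairs, with 3 control and 3 AMI-5 libraries as points. The groups do not overlap in any of the 6, and the ratio is higher with AMI-5 for Rab1a over Rab1b and Rab11a over Rab11b and lower for the other 4.

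The 22 members with no set place in these routes had control means from 0 CPM (Vamp9) to 70.7 CPM (Snap47). Rab40b, which carries a SOCS box and recruits a ubiquitin ligase, rose from 2.33, 2.62 and 2.80 CPM to 5.92, 5.12 and 5.45 CPM, with no overlap (1.09, SE 0.17, adjusted p = 0.000211). Rab39b, a Rab expressed in neurons, was also higher (0.65), with 18.6% of its exonic bases opposite Gm15063. Rab36 and Rab34, a Rab of the Golgi and cilium, were lower (-0.51 and -0.28). Rab33a, Rab19 (-0.45) and Rab23 (-0.22), which acts in cilia, were lower too, but for Rab19 the call was lost without control 1 (-0.30), AMI-5 1 (-0.44), AMI-5 2 (-0.40) or AMI-5 3 (-0.47), and for Rab23 without control 3 (-0.21) or any AMI-5 library (-0.19 to -0.21). Snap47 was not called (-0.10). Of 9 further synaptotagmins, 2 were lower and 7 not called. Syt6 fell from 8.81 ± 1.5 CPM to 4.47 ± 0.28 CPM (-0.98, adjusted p = 0.000223). Syt8, at 1.00 ± 0.49 CPM and 0.380 ± 0.20 CPM, stood at -1.39 and lost its call without control 2 (-1.43), control 3 (-0.97), AMI-5 1 (-1.05) or AMI-5 3 (-1.37). Syt11 and Syt3, which had the highest levels per length of these 9, were not called (0.23 and -0.25), although Syt11 was called higher without control 3 (0.29) or AMI-5 2 (0.32) and with GC and length trends removed (0.30). Too few reads were left to test 4 members, with 10 reads over the controls and 28 over the AMI-5 libraries for Rab42, 11 and 47 for Rab44, 0 and 3 for Vamp9, and 3 and 3 for Syt10.

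The direction of a member tracked the GC content of its transcript. Over 104 members with a value, log2 fold change and GC content had a Pearson r of -0.58 and a Spearman rho of -0.59, across genes that share the same 6 libraries. Over 14565 protein-coding genes the same values were -0.27 and -0.44. Of 31 members under 45% GC, 17 were called higher and 0 lower by edgeR's test. None was lower at an unadjusted p under 0.05 (0), with DESeq2 (0) or with limma voom (0), and protein-coding genes of that band had 41.9% higher and 9.04% lower. Of 16 members at 55% or more, 2 were higher and 7 lower, against 6.64% and 55.3% of protein-coding genes. Between 45% and 50%, 4 of 28 were higher and 9 lower, against 19.6% and 22.0% of protein-coding genes. Between 50% and 55%, 2 of 29 were higher and 13 lower, against 11.9% and 37.5%. Rab3d (53.2% GC) and Stx18 (50.6%) were the 2 members called higher between 50% and 55%, and Rab26 (55.8%) and Syt5 (55.4%) the 2 at 55% or more.

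After trends with GC content and gene length over all genes were removed, 21 of the 105 members tested were called higher and 22 lower. Over all 17519 genes tested, 4105 were then called higher and 4028 lower. The value of r over the members was -0.24. The zymogen granule Rabs stayed higher at 0.60 for Rab3d, 0.77 for Rab26 and 0.58 for Rab27b, and Vamp8 (-0.33) and Stxbp2 (-0.18) stayed lower. Stx7 (0.51), Vamp3 (0.32) and Vamp4 (0.35) stayed higher, Stx1a (-0.30) and Syt7 (-0.18) lower, and Vamp7, with no GC value, was not corrected. Calls were lost for Rab11a (0.12), Rab1b (-0.06), Rab5c (-0.11), Rab24 (-0.11), Rab2a (0.07), Stx6 (-0.15), Stx3 (-0.17), Syt13 (-0.09), Vamp1 (-0.25), Rab3c (0.37), Vamp2 (-0.08), Stxbp4 (0.15) and Stxbp6 (0.15). Other members that lost the call included Rab14 (0.03), Rab9 (0.22) and Syt8 (-1.15). Rab18 and Rab34 changed sign (-0.02 and 0.03). The part of the kit version in the GC relation was not tested.

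**Figure D5:**
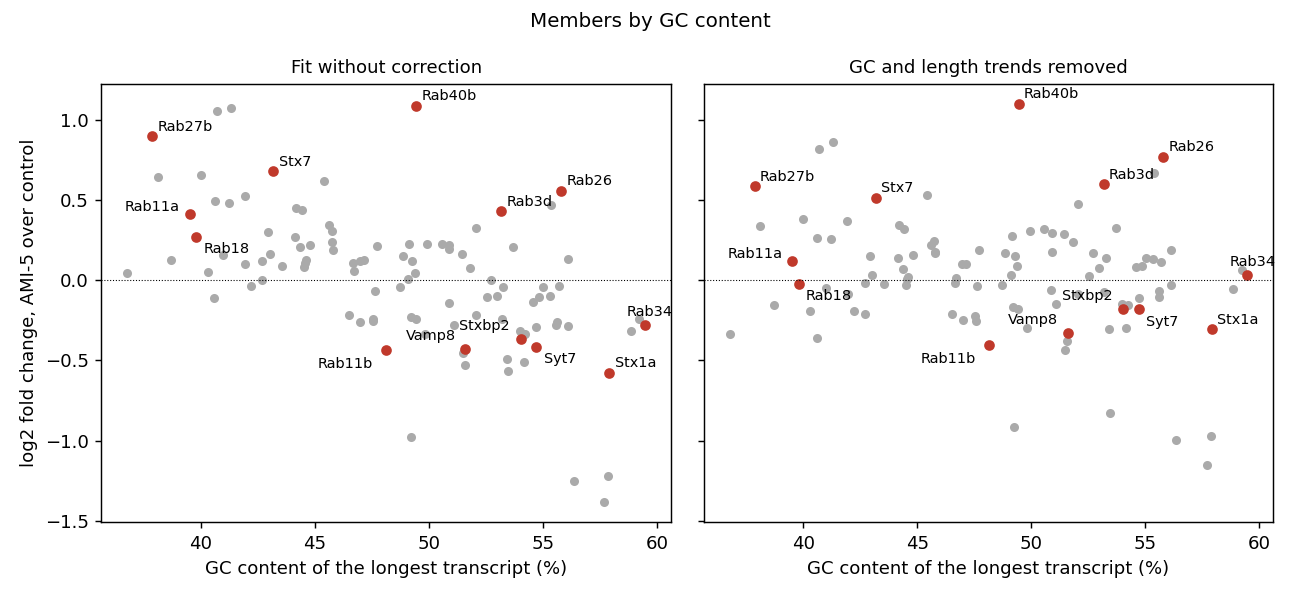
Log2 fold change (AMI-5 over control, vertical axis) against GC content of the longest transcript in percent (horizontal axis) for the 104 members with a value, as fitted on the left and with GC and length trends removed on the right, with some members named in red. The slope of the left panel (Pearson r of -0.58) is weaker on the right (-0.24), where Rab3d, Rab26 and Rab27b remain above 0 and Vamp8 and Stx1a below.

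The other genes of vesicle traffic, from lists set by role, were called in both directions too. So were all tested genes, of which 54.1% were called, 27.5% higher and 26.6% lower, so this is not particular to the lists. Among 20 regulators of the Rab cycle, 4 were higher and 6 lower (median 0.01). Chm, the escort protein that presents new Rabs for prenylation, was higher (25.6 CPM in controls, 36.5 CPM with AMI-5, 0.51, adjusted p = 8.09e-05). Madd, an exchange factor for Rab3 and Rab27 proteins, and Tbc1d10b, a Rab GTPase-activating protein, were lower (-0.40 and -0.39). Of 20 tested Rab effectors 1 was higher and 5 lower (median -0.13). Sytl1, an effector of Rab27 proteins, was the 1 that rose (17.1 CPM and 23.9 CPM, 0.48, adjusted p = 0.000608), and Rab11fip4 (-0.72), Rph3al (-0.38) and Rims2 (-0.46) were among those that fell.

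Of 19 tested priming and fusion genes 4 were higher and 3 lower (median -0.06). The priming factors Unc13b (-0.34) and Unc13a (-0.39) were lower, and Napg (0.37) and Napb (0.61), which help take used SNARE complexes apart, were higher. Of 17 other SNAREs and SNARE regulators 3 were higher and 2 lower (median 0.09), with Bet1 (0.54), Scfd1 (0.37) and Sec22a (0.22) higher and Ykt6 (-0.34) lower. Sec22a lost its call without control 2 (0.21), control 3 (0.18), AMI-5 1 (0.20) or AMI-5 3 (0.24). Of 9 exocyst subunits, which tether vesicles to the plasma membrane, 3 were higher and 2 lower (median 0.02). Exoc2 (0.32) and Exoc5 (0.26) were higher, and Exoc7 (-0.22) and Exoc8 (-0.23) lower, with the calls lost for Exoc7 without AMI-5 2 (-0.18) and for Exoc8 without control 1 (-0.22), control 3 (-0.20), AMI-5 1 (-0.19) or AMI-5 3 (-0.21). With GC and length trends removed, calls were lost for Chm, Tbc1d10b, Rph3al, Unc13a, Bet1, Scfd1, Sec22a, Exoc5, Exoc7 and Exoc8, and Sytl1 rose by 0.78.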

How the data were processed

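The authors deposited raw read counts per gene of 6 libraries in 1 table of 49763 entries, with the summed exon length of each gene. The submitters' processing notes name build mm10 and, as tools, GSNAP 2018-05-30, featureCounts 1.6.2 and bcl2fastq 2.19.1. Ensembl release 87 is the annotation named in the deposited table. Strand setting and handling of multi-mapping reads were not found in the labels. The 92 spike-in entries were left out. Symbols (found for 49412 genes), GC content of the longest transcript and shared 50-base words came from GENCODE M21.

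The two-sided test was edgeR 4.0.16's robust quasi-likelihood F test (R 4.3.3) after TMM scaling and filterByExpr by group. The model held group alone, and p-values were adjusted by Benjamini-Hochberg over 17519 genes. The common biological coefficient of variation was 9.65%. CPM is the read count scaled to a common TMM-adjusted library size, and CPM per kb divides it by the deposited length. Alternatives were other scalings, no filter, DESeq2 1.42.0, limma 3.58.1 voom, a replicate block, removal of GC and length trends, unique-sequence genes (under 5% shared) and leaving out each library. The script was tested on simulated data.

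Members, classes and lists were chosen with earlier results of these data known. Named were every exocrine, endocrine and both-route member, and from each other class up to 4 called genes with the smallest p and 2 with the highest level per length. From each list of other traffic genes up to 4 called genes were named. Some genes that this rule takes are not reported here. Rab1a, Rab8a, Rab9b, Stx5a, Stx6, Stx12, Stx16 and Vamp4 were added after their values were seen, as were the further genes whose call depended on 1 library. Same-numbered libraries did not deviate together (correlations of -0.058, -0.038 and -0.048), so numbers were not taken to pair samples.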

Additional observations from a re-analysis of the deposited data

How the results depend on the processing

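Of the 55 called members, 26 (14 higher and 12 lower) kept their call in every processing alternative that they entered (the one added later aside). The other 29 did not, and 12 uncalled members were called in at least 1 alternative. Among the 26, Vamp7 had no GC value and was not corrected for GC and length trends, so its call was not put to that test. The same count was not made over all called genes, so it cannot be read as particular to the members. Leaving out each library in turn gave 8435 to 9060 called genes, 23 to 29 members higher and 22 to 26 lower, with class medians of -0.0414 to 0.00547 (exocrine), -0.0159 to 0.0999 (endocrine and neuronal, the highest without AMI-5 replicate 2) and 0.0739 to 0.118 (constitutive). With the replicate block, 9186 genes, 27 members higher and 24 lower were called, and Rab37 stood at -0.00796.

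Removing GC and length trends moved the endocrine median to 0.135 and the constitutive median to 0.0254. Among the genes whose sign it turned were Snap23 (-0.194), Snap25 (-0.156), Stxbp3 (-0.0515), Stx2 (0.073), Syt3 (0.0635), Rab3a (0.14), Rab1a (-0.0897), Snap47 (0.0278), Rab34 (0.0315), Rab10 (-0.0304), Rab18 (-0.0225), Exoc5 (-0.0459) and Exoc7 (0.0184). With the replicate block as well, 18 members were higher and 18 lower, against 3898 and 3764 of all 17519 genes tested. The medians were 0.135 and 0.0248, and the genes just listed stood at -0.194, -0.16, -0.0486, 0.0746, 0.0599, 0.143, -0.0895, 0.0275, 0.0316, -0.0292, -0.0225, -0.0458 and 0.0169, in the same order. Further members that turned sign with the trends removed and no block included Stx17 (-0.0235), Rab28 (-0.335) and Rab21 (-0.212). Of these, Rab28 and Rab21 were then called lower.

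Over unique-sequence protein-coding genes alone (10915 tested, 81 of them members), 5228 genes were called, with 21 members higher and 16 lower. The constitutive median was 0.132, and Stxbp5 (0.0151) and Rab3a (0.00612) were among those that turned sign. With their own GC and length trends removed, an alternative chosen after seeing the data, 4149 genes were called, 13 members higher and 16 lower. The exocrine, endocrine and constitutive medians were then -0.162, 0.106 and 0.0203. Genes whose sign turned included Snap23 (-0.185), Snap25 (-0.144), Stx2 (0.0732), Syt3 (0.0755), Rab3a (0.142), Rab1a (-0.0803), Rab34 (0.0388), Rab10 (-0.0202), Rab18 (-0.0112) and Exoc5 (-0.0273). Fewer genes entered these fits, by their construction.

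Library totals alone gave medians of -0.115, -0.0928 and 0.00311, with Snap23 at -0.0402, Rab37 at -0.0928 and Rab10 at -0.0118. Upper-quartile scaling gave a constitutive median of 0.143, with Rab7 at 0.00242, Stxbp5 at 0.0105 and Rab3a at 0.00175. With limma voom Rab37 stood at -0.0114. Without single libraries Stxbp5 ranged from -0.0944 to 0.045, Rab3a from -0.0982 to 0.0109 and Rab37 from -0.116 to 0.0999. For each of these the cause was not tested. Depth limits the low genes most in the controls.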
